A study of Mus musculus with 4 samples.

Results

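The expression of 8 genes of inhibitory signalling was followed across single cells of the E14.5 mouse cerebellum. They were Gad1 and Gad2, which encode the enzymes that make GABA, Gabbr1 and Gabbr2, the subunits of the GABA-B receptor, Slc12a2 and Slc12a5, the chloride transporters NKCC1 and KCC2, Gabra2, a GABA-A receptor subunit, and Glra2, a glycine receptor subunit. All 8 members of the list were found among the 32285 genes of the deposited matrices. The cells had been sorted for tdTomato (tdT). Control embryos carried Atoh1-Cre/+ and R26LSL-tdT/+, and embryos of the conditional knockout (CKO) carried in addition En1lox/lox and En2lox/lox, so the Cre driver and the reporter were shared by both groups. Each of the 2 control and 2 En1/2 CKO libraries was made from pooled animals, and Atoh1-Cre marks the rhombic lip lineage, from which granule cells and excitatory neurons of the cerebellar nuclei arise. The labels do not say whether libraries of different numbers came from separate litters, so p-values measure the spread between these libraries.

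GABA and glycine open chloride channels, and the effect of that opening depends on the chloride inside the cell. NKCC1 carries chloride into the neuron and KCC2 carries it out, and in many regions of the developing brain KCC2 rises as neurons mature. The GABA-B receptor works differently: it is a G protein-coupled receptor that needs both of its subunits, Gabbr1 binding GABA and Gabbr2 coupling to the G protein. Excitatory neurons carry all these receptors without making GABA themselves, whereas Gad1, Gad2 and the vesicular transporter Slc32a1 mark GABAergic neurons, which in the cerebellum come from the Ptf1a lineage.

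The kept cells numbered 2911 and 3931 in control replicates 1 and 2 and 2007 and 3697 in CKO replicates 1 and 2, 12546 in all. They were divided by their counts of unique molecular identifiers (UMIs), each of which stands for 1 captured RNA molecule. Cells with more Pax6 than Meis2 UMIs are called Pax6-high (1801, 961, 1208 and 2978 cells in that order of libraries), and cells with more Meis2 than Pax6 UMIs Meis2-high (603, 2322, 573 and 372 cells). The other 1728 cells had equal counts of both, and 1293 of them (74.8%) had no UMI of either gene. These sets are ranges of 2 counts and not cell types: 18.3% of the Pax6-high and 24.2% of the Meis2-high cells lay within 1 UMI of the dividing line. Markers that the division did not use went with the names the genes are known for. The summed level of 6 granule lineage genes was 1981 to 2527 CPM (a gene’s share of all UMIs of its cell set and library, times 1e6) in Pax6-high cells and 937 to 1658 CPM in Meis2-high cells, and that of 6 genes of excitatory cerebellar nuclei neurons was 67.8 to 231 CPM and 702 to 1151 CPM.

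The libraries differed in depth and in admixed RNA. Median UMIs per cell were 3238 and 2339 in the control and 13722.5 and 9818.5 in the CKO libraries for Pax6-high cells, but 2617, 2171.5, 3110 and 2248 for Meis2-high cells. The deep Meis2-high cells were not alike in depth. With shallow cells and those high in mitochondrial UMIs left out, 55, 123, 168 and 85 Meis2-high cells remained. Their medians were 7197 and 5355 UMIs in control and 15121 and 11442 UMIs in CKO libraries. Such cells weigh more in CPM levels, so the members were also compared with cells thinned before summing. Over all kept cells En2 stood at 136 and 167 CPM in control and at 29.0 and 19.8 CPM in CKO libraries, while En1 (150 to 382 CPM) overlapped between the groups, and a 3′ count need not lie within the deleted part of either gene. In Meis2-high cells, erythroid RNA (5 genes) reached 2456 CPM in control replicate 2 against 3.93 to 30.5 CPM in the others, and microglial RNA (3 genes) reached 55.6 CPM there against at most 1.13 CPM. In Pax6-high cells erythroid RNA was at 16.1 and 475 CPM in control and 371 and 2.73 CPM in CKO libraries. The 5 genes of glia and ventricular progenitors summed to 198, 43.4, 112 and 234 CPM in Meis2-high cells. In Pax6-high cells they summed to 223, 106, 192 and 195 CPM. Endothelial, mesenchymal and choroid plexus markers summed to at most 6.58 CPM in either set, with Cldn5 and Col1a1 at 0 in Meis2-high cells. Pairs of libraries shared 1 to 6 cell barcodes.

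The sequences 250 bases before the start sites of Gabbr1, Gabbr2 and Glra2 are shown because Gabbr2 and Glra2 had the largest differences between the sets among the members, Gabbr1 is the partner of Gabbr2, and the windows differ widely in base composition. They are from RefSeq (GRCm38.p6), where 7 of the 8 genes had an entry, and are written 5′ to 3′ on the strand of the gene with each CG dinucleotide in capitals.
Gabbr2 (chr4:46991715-46991964, minus strand): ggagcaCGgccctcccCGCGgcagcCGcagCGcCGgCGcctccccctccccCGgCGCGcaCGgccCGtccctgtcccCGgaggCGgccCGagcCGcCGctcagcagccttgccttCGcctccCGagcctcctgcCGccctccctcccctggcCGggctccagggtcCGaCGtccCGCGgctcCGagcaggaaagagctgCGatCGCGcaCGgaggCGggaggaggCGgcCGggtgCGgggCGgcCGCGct
Gabbr1 (chr17:37045716-37045965, plus strand): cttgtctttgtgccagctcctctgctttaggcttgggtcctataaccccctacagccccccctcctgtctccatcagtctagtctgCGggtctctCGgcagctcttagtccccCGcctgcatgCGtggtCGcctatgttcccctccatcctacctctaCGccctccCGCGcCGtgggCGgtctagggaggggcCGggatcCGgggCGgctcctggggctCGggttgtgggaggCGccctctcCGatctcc
Glra2 (chrX:165327394-165327643, minus strand): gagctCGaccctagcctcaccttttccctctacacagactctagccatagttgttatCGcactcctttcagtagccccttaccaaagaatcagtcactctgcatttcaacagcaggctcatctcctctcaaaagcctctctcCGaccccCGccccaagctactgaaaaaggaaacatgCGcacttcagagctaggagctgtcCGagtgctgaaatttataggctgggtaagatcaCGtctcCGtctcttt
In the GENCODE M21 annotation Gabbr2 spans 46662305 to 46991873, so part of its RefSeq window lies within that span. The Gabbr2 window held 37 CG dinucleotides and was 80.8% G and C, the Gabbr1 window held 16 at 66.0%, and the Glra2 window held 8 at 50.4%. Over all 32851 RefSeq mouse promoters the medians were 6 and 52.4%, and 2.20% of them had as many CG dinucleotides as Gabbr2. Short words were looked for on both strands in 300 bases around each start site (250 before and 50 after). The homeodomain core word TAATTA was in none of the windows of the 7 genes, against 5.29% of all promoters. The word TGACAG, which Meis proteins are known to bind, was in none of them, against 19.2%. The E-box word CAGCTG was in none of them either, against 16.3%.

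The first comparison asked how the 8 genes are divided between the Meis2-high cells and the Pax6-high cells of the same library. Gabbr2, Glra2, Slc12a5, Gad2, Gabbr1 and Gabra2 were all higher in Meis2-high cells, by 15.4-fold, 9.35-fold, 6.09-fold, 4.28-fold, 2.35-fold and 1.66-fold, whereas the transporter Slc12a2 stayed within 1.18-fold and was not called. A gene is called at an adjusted p under 0.05 in edgeR's quasi-likelihood test with Benjamini-Hochberg adjustment over all genes tested. In this comparison 52.3% of the 12387 genes tested were called, 25.3% higher and 27% lower, so a call in itself sets no gene apart. The members differed widely in size, from 1.18-fold to 15.4-fold, and these sizes were not ranked against those of all genes. Gabbr2 ranked 7 and Glra2 45 among all genes by p-value.

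Gabbr1 RNA (chromosome 17, 37045966 to 37075067, plus strand, GRCm38) stood at 88.0, 131, 70.3 and 65.6 CPM in Pax6-high cells and at 263, 230, 158 and 203 CPM in Meis2-high cells, in the order control 1, control 2, CKO 1, CKO 2. Every library had more in its Meis2-high cells, and the log2 fold change was 1.23 ± 0.11 (SE; adjusted p 3.05e-06). Gabbr2 (chromosome 4, 46662305 to 46991873, minus strand) stood at 2.14, 3.15, 3.75 and 4.34 CPM in Pax6-high cells and at 34.6, 21.5, 77.8 and 69.7 CPM in Meis2-high cells. The log2 fold change was 3.94 (SE 0.18, adjusted p 3.86e-08), and no library's Pax6-high value reached any Meis2-high value. The subunits of the GABA-B receptor thus differed between the sets to unequal degrees, Gabbr1 being present at high counts in both and Gabbr2 resting in Pax6-high cells on 25, 10, 61 and 127 UMIs.

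Detection per cell was compared after each cell had been thinned to 1000 UMIs, because deeper cells show more genes. A Gabbr1 UMI was then found in 12.8, 12.5, 9.69 and 9.97% of the Pax6-high cells and in 23.2, 19.8, 20.9 and 27.7% of the Meis2-high cells. Background was read in 19 erythroid cells, which should lack these genes. They numbered 4, 12, 3 and 0 in the same order of libraries, so none came from CKO replicate 2. Their median was 4873 UMIs with haemoglobin included, and outside haemoglobin they held 30267 UMIs in all. Of these 19 cells, 2 (10.5%, 95% Wilson interval 2.94 to 31.4%) had a thinned Gabbr1 UMI. Without thinning 3 of them (15.8%, interval 5.52 to 37.6%) had one, against 30.9 to 49.4% of the Pax6-high and 41.3 to 55.5% of the Meis2-high cells. With 19 cells the background share of Gabbr1 is too uncertain to say how much of either set's thinned share exceeds it. A Gabbr2 UMI was found in 0.33, 0.728, 0.745 and 0.739% of the Pax6-high and in 3.81, 1.94, 7.50 and 9.14% of the Meis2-high cells, and in none of the 19 erythroid cells, a count of 0 that allows up to 15.8%. Both subunits were found together in 1.33, 0.646, 1.75 and 2.42% of the thinned Meis2-high cells. Without thinning the same cells had both in 5.97, 2.71, 20.6 and 15.9%. Among unthinned Meis2-high cells with a Gabbr2 UMI, 56.8 to 72.0% per library also had a Gabbr1 UMI, against 40.5 to 49.8% of those without one. After thinning the 2 CKO libraries showed little of this gap, with 23.3% against 20.8% and 26.5% against 27.8%, and the controls showed 34.8% against 22.8% and 33.3% against 19.5%.

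Glra2 (chromosome X, 165129017 to 165327393, minus strand), which encodes the alpha subunit typical of immature glycine receptors, stood at 3.25, 6.62, 2.15 and 1.61 CPM in Pax6-high and at 37.6, 40.5, 25.3 and 16.3 CPM in Meis2-high cells (log2 fold change 3.23, SE 0.18, adjusted p 1.04e-07). The lowest Meis2-high library was above the highest Pax6-high library. The beta subunit gene Glrb was not called (log2 fold change −0.31, SE 0.19, adjusted p 0.196), nor was Glra1 (0.55, SE 0.37, adjusted p 0.224). Gabra2 (chromosome 5, 70957597 to 71095849, minus strand) was closer between the sets, at 36.7, 61.8, 25.6 and 22.1 CPM in Pax6-high and 68.2, 83.2, 41.9 and 51.7 CPM in Meis2-high cells. Its difference held within every library (log2 fold change 0.73, SE 0.11, adjusted p 0.000138), although control replicate 2 had more Gabra2 in its Pax6-high cells than either CKO library had in its Meis2-high cells. With every cell thinned to 1000 UMIs before summing it was 0.24 (adjusted p 0.298) and no longer called.

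**Figure D1:**
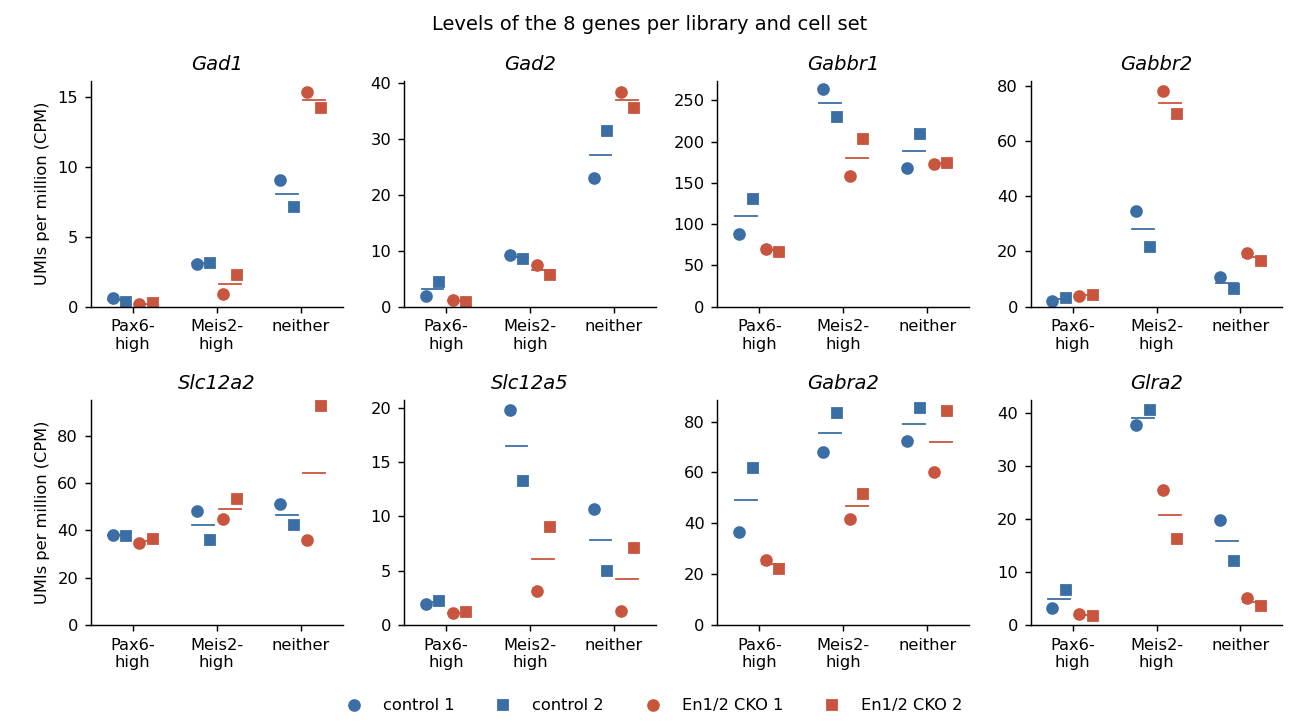
Level of each of the 8 genes (y axis, CPM, separate scale per gene) in Pax6-high cells, Meis2-high cells and cells in neither set (x axis). Each point is 1 library, blue for control and red for En1/2 CKO, and short lines are group means. Gabbr2 and Glra2 sit far higher in Meis2-high than in Pax6-high cells, Gad1 and Gad2 are highest in cells of neither set, and Slc12a2 is similar across Pax6-high and Meis2-high cells.

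The chloride transporters went separate ways. Slc12a5 (chromosome 2, 164960802 to 164999731, plus strand), the chloride exporter KCC2, stood at 1.97, 2.21, 1.11 and 1.16 CPM in Pax6-high cells and at 19.8, 13.2, 3.17 and 8.99 CPM in Meis2-high cells (log2 fold change 2.61, SE 0.30, adjusted p 1.85e-05). Slc12a2 (chromosome 18, 57878678 to 57946821, plus strand), the importer NKCC1, stood at 38.1, 37.5, 34.5 and 36.5 CPM and at 48.3, 35.9, 44.6 and 53.4 CPM in the same order (log2 fold change 0.24, SE 0.10, adjusted p 0.0639). Without control replicate 2 the difference was 0.33 (adjusted p 0.0132) and called, and it was called in 4 of 14 alternatives in all. The ratio of Slc12a2 to Slc12a5 UMIs, which is not corrected for how well each 3′ end is captured, was 19.3, 17.0, 31.2 and 31.4 in Pax6-high cells and 2.44, 2.71, 14.1 and 5.94 in Meis2-high cells. In both sets the 2 CKO libraries had higher ratios than the 2 control libraries. The exact permutation test of 2 against 2 libraries cannot give a two-sided p below 0.33, so this order was not tested further.

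Of the 70 genes of GABA and glycine signalling listed for context, 51 could be tested between the sets, and 30 were called higher and 7 lower in Meis2-high cells (median log2 fold change 0.60, against −0.01 over all genes tested). These counts and those below are to be read against 25.3% of all genes tested called higher and 27% called lower. Outside the 8 members the largest differences were in Iqsec3 (3.39, SE 0.34) and Shisa7 (3.17, SE 0.30), which encode proteins of inhibitory synapses. Of 13 scaffold and trafficking genes 10 were called higher, among them Nlgn2 (0.92, SE 0.11, adjusted p 1.81e-05), the neuroligin of inhibitory synapses, and Gphn, which encodes gephyrin (0.59, SE 0.11). Of 8 GABA-A subunits 5 were called higher and Gabra4 lower. The GABA-B group was split: Gabbr1, Gabbr2, Kctd16 and Kctd12b were called higher, whereas Kcnj6 (−1.97, SE 0.14, adjusted p 3.15e-07) and Kcnj3 (−0.48, SE 0.18, adjusted p 0.0417), the potassium channels that GABA-B receptors open, and the auxiliary subunit Kctd8 (−1.68, SE 0.17, adjusted p 6.93e-06) were called lower. In the group of chloride transporters and their kinases 6 of 11 were called higher and Slc12a7 lower. Gabra6, Gabrd, Gabrp, Gabrr3 and Glra4 had no UMI in any kept cell.

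The second comparison asked what the deletion of En1 and En2 changed within each set. In Meis2-high cells the GABA-B subunit Gabbr2 rose in the CKO libraries by 2.82-fold, from 28.0 ± 9.25 to 73.8 ± 5.78 CPM (SD, n = 2 each), and it was the 1 member called. It rested on 68 and 130 UMIs of the control and 344 and 124 UMIs of the CKO libraries, and both CKO libraries lay above both controls. The log2 fold change was 1.50 (SE 0.24) with an adjusted p of 0.0476 in edgeR's quasi-likelihood test, where 0.212% of 11804 genes were called (0.136% higher and 0.0762% lower). Gabbr2 ranked 24 of the 25 called genes, close to the threshold. Over 16 alternative settings its log2 fold change was between 1.19 and 1.80 and it was called in 10 of them; leaving out control replicate 2 gave 1.19 (adjusted p 0.121). Leaving out doublets (adjusted p 0.0545), cells with a Gad1 or Gad2 UMI (0.0645), cells under 4000 UMIs or above 5% mitochondrial UMIs (0.101) or the 25% of cells lowest in nuclear RNA (0.110) also ended the call, as did library totals without TMM factors (0.0785).

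The other 6 members tested in Meis2-high cells were not called. The 2 CKO values of Slc12a5 lay below the 2 control values, with means of 16.5 ± 4.67 CPM in control and 6.08 ± 4.12 CPM in CKO libraries (SD, n = 2 each). The log2 fold change was −1.55 ± 0.46 (SE; adjusted p 0.184), on 39, 80, 14 and 16 UMIs. Its value rested much on the CKO libraries: it was −2.24 (adjusted p 0.0166) without CKO replicate 2 and −0.81 (adjusted p 0.546) without CKO replicate 1. It was called in 3 of 14 alternatives, with its lowest adjusted p (0.00570) when no low-count filter was used. Gabra2 and Glra2 were each called in 1 of 16, the fit with crossed replicate numbers. Gabra2 was at −0.69 on the log2 scale (SE 0.22, adjusted p 0.205), with both CKO libraries below both controls. Glra2 had −0.83 (SE 0.27, adjusted p 0.208), again without overlap, and it was −1.26 without CKO replicate 1. Gabbr1 had −0.42 (SE 0.22, adjusted p 0.415), Slc12a2 had 0.27 (SE 0.22, adjusted p 0.632) and Gad2 had −0.33 (SE 0.38, adjusted p 0.747). Non-overlap by itself is common here: 44.4% of the 11804 genes tested had both CKO libraries on 1 side of both controls, 19.8% above and 24.6% below. When each cell was thinned to 1000 UMIs before summing, so that deep cells counted no more than shallow ones, Gabbr2 was at 1.80 (adjusted p 0.0325), Slc12a2 at 1.04 (adjusted p 0.391), Glra2 at −0.01 and Gabbr1 at 0.17. The thinned share of Meis2-high cells with a Gabbr2 UMI was higher in both CKO libraries (exact permutation test, p = 0.33, the smallest possible). The share with a Slc12a2 UMI was also higher in both, at 3.98, 3.70, 8.73 and 6.45% (p = 0.33 in the same exact test). The thinned shares overlapped between the groups for Glra2 (5.47, 3.88, 5.24 and 2.96%), Slc12a5 (1.33, 1.55, 0.698 and 1.34%) and Gabra2 (4.98, 7.24, 3.66 and 5.91%). The lower summed levels of these genes in CKO libraries were thus not matched by separate shares of cells.

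The makeup of the Meis2-high set also differed between the libraries. The summed level of the glutamatergic markers Slc17a6 and Slc17a7 was 344 and 342 CPM in control but 237 and 225 CPM in CKO libraries, that of 6 granule lineage genes was 1288 and 937 against 1444 and 1658 CPM, and the precursor gene Atoh1 stood at 94.6 and 41.5 against 194 and 119 CPM. The 3 genes of unipolar brush cells summed to 71.2 and 125 against 54.1 and 33.7 CPM, and the 12 genes of the GABAergic lineage to 154 and 92.7 against 56.1 and 91.0 CPM, with Ptf1a at 0. In pooled RNA fewer cells of a type and less RNA per cell cannot be told apart, and the part of these markers in the gene differences was not tested, but the members were read again in cells that share a marker.

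Among Meis2-high cells with a UMI of Slc17a6, the vesicular glutamate transporter of these neurons (1876 cells), Gabbr2 stood at 40.9 and 25.4 CPM in control but 92.4 and 92.5 CPM in CKO libraries. In cells with Lhx9 (2142 cells) it was 33.3 and 25.2 against 87.2 and 83.0 CPM. Of 11 such marker subsets, which share cells with each other, Gabbr2 was higher in both CKO libraries in 8 and overlapped in the Bcl11b, Lmx1a and Eomes subsets. Among the 8, it rested on only 1, 7, 29 and 1 UMIs in cells with Tbr1 and on 0, 8, 26 and 3 in cells with Calb2. Slc12a5 was lower without overlap in 10 of 11 subsets, for example at 18.1 and 14.2 against 2.84 and 7.96 CPM in cells with Slc17a6, on 19, 47, 9 and 8 UMIs. Glra2 was likewise lower in 10 of 11, at 46.6 and 44.8 against 23.6 and 17.9 CPM in cells with Slc17a6. Gabbr1 was lower in 9, Gabra2 in 7, and Slc12a2 was higher in 2 and lower in 1. Gabra2 was at 244 and 133 CPM against 64.9 and 41.5 CPM in cells with Eomes, and overlapped in cells with Tbr1, at 154 and 73.8 against 71.1 and 167 CPM. Several subsets were small, and in those of Lmx1a, Calb2 and Tbr1 neither CKO library had a Slc12a5 UMI. Slc12a5 rested on 1, 1, 0 and 0 UMIs in cells with Tbr1 and on 1, 8, 0 and 1 UMIs in cells with Eomes. Cells in neither set also had more Gabbr2 in the CKO libraries, with means of 17.9 ± 1.87 CPM and, in the controls, 8.55 ± 3.02 CPM (SD, n = 2 each). They had less Glra2, with 4.34 ± 1.11 CPM in CKO and 15.9 ± 5.38 CPM in control libraries. Both rested on few UMIs, 13, 9, 15 and 14 for Gabbr2 and 24, 17, 4 and 3 for Glra2. After thinning, the shares of these cells with a UMI overlapped between the groups for Glra2 but not for Gabbr2. These subsets and the cells in neither set were described and not tested. Subset counts were not thinned, and the share of all genes without overlap was not computed within the subsets. In the whole Meis2-high set 19.8% of the genes tested lay above and 24.6% below without overlap.

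**Figure D2:**
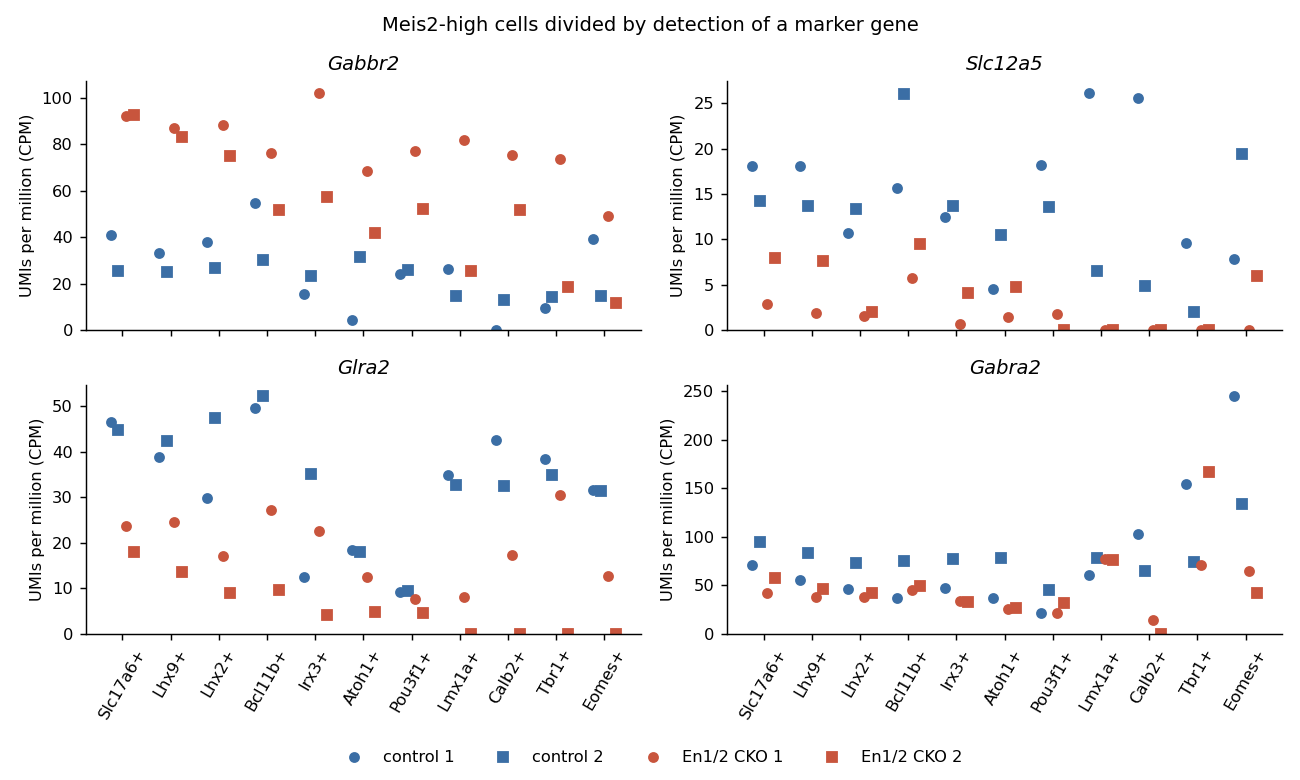
Levels of Gabbr2, Slc12a5, Glra2 and Gabra2 (y axes, CPM) in Meis2-high cells that also had at least 1 UMI of the marker on the x axis. Each point is 1 library, blue for control and red for En1/2 CKO, and a cell can belong to several subsets. In 8 of 11 subsets both red Gabbr2 points lie above both blue ones, and Slc12a5 and Glra2 are lower in 10 of 11 each. In the whole Meis2-high set 19.8% of the genes tested lay above and 24.6% below without overlap.

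In Pax6-high cells none of the 7 members tested was called, where 0.0574% of 13931 genes were called (0.0215% higher and 0.0359% lower) and 1368 (9.82%) had an unadjusted p under 0.05. In edgeR's test 4 of the 7 members had an unadjusted p under 0.05. DESeq2 called none of the members there either. Gabra2 had the lowest adjusted p, at −0.90 on the log2 scale (SE 0.27, adjusted p 0.327), from 49.2 ± 17.8 to 23.8 ± 2.44 CPM (SD, n = 2 each). With no low-count filter it was called (−0.86, adjusted p 0.0287). Leaving out control replicate 2 gave −0.48, and the value was −0.30 when shallow cells (under 4000 UMIs) and those above 5% mitochondrial UMIs were left out. Gabbr2 had a positive value here too (0.83, SE 0.40, adjusted p 0.506). Glra2 had −1.17 (SE 0.46, adjusted p 0.479), Gad2 −1.41 (SE 0.55, adjusted p 0.476), Slc12a5 −0.72 (SE 0.47, adjusted p 0.585), Gabbr1 −0.55 (SE 0.24, adjusted p 0.499) and Slc12a2 0.03 (SE 0.20, adjusted p 0.964), which became −0.092 with library totals in place of TMM factors. All 8 members had libraries that did not overlap between the groups, as did 47.6% of the genes tested, 12.6% above and 34.9% below. The larger depth of the CKO cells (medians of 13722.5 and 9818.5 against 3238 and 2339 UMIs) goes with this comparison, and its part in it was not tested.

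Whether the deletion acted differently in both sets was tested by an interaction term with the library as block. It was called for 0.114% of 13146 genes (0.0609% higher and 0.0532% lower in Meis2-high cells) and for none of the 8 members, each at an adjusted p of 0.9996, and none of the members had an unadjusted p under 0.05. For Gabbr2 the log2 fold change was higher by 0.51 (SE 0.39) in Meis2-high cells, and for Slc12a5 it was lower there by 0.85 on the log2 scale (SE 0.61). The rise of Gabbr2 is therefore not shown to be larger in Meis2-high than in Pax6-high cells. Over all kept cells, where the share of each set also enters, 0% of 14710 genes were called by edgeR and 142 by DESeq2, with 1648 at an unadjusted p under 0.05. Over 13 alternatives in all kept cells, Slc12a5 was called in 4, Glra2 and Gabra2 in 3 each, Gad2 in 2 and Gabbr1 in 1. No member was called in the main fit, with an edgeR adjusted p of 0.403 or more for each. The alternatives that called Gabbr1, Gabra2, Gad2, Glra2 and Slc12a5 included the fit without control replicate 1, where all were lower in CKO libraries. That fit has 1 control library, in which 59.1% of kept cells were Meis2-high, against 20.7% in control replicate 1. The share of all genes called in it is not given here, so its calls set no member apart.

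**Figure D3:**
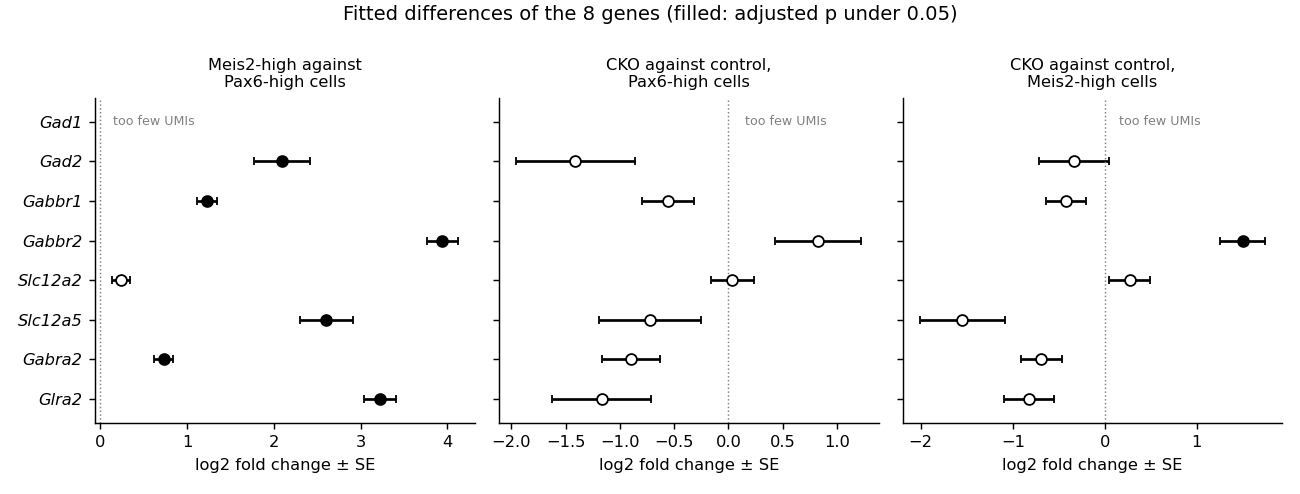
Log2 fold change and its SE (x axis) of each member (y axis) between Meis2-high and Pax6-high cells, and between CKO and control libraries in each set. Filled points passed an adjusted p of 0.05 and open ones did not. Of the members tested, 6 are higher in Meis2-high cells, and Gabbr2 at 1.50 is the 1 filled point between the genotypes.

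In Meis2-high cells 52 genes of the wider pathway list were tested between the genotypes, and Gabbr2 was the 1 gene called. The list's median log2 fold change was −0.36, against −0.01 over all genes tested, with 13 positive and 39 negative values, and 3 positive and 15 negative genes had an unadjusted p under 0.05. Over all genes tested there, 14.7% had such a p, 7.85% with positive and 6.82% with negative values. None of the 9 GABA-A subunits was called, and 5 of them, all negative, had an unadjusted p under 0.05, to be read against the same share over all genes. Genes of the list named here below 100 CPM were chosen after their values were seen. Gabra3, an alpha subunit, stood at 16.8, 8.27, 2.49 and 4.50 CPM (log2 fold change −1.82, SE 0.50, adjusted p 0.162). Kcnj3 stood at 21.4, 13.7, 6.34 and 7.87 CPM (−1.24, SE 0.35, adjusted p 0.166), a sign opposite to that of Gabbr2. Gldc, which breaks down glycine, had 0.84 (SE 0.29, adjusted p 0.230). Of the listed genes that averaged 100 CPM or more in Meis2-high cells, Gabarap was at 264, 342, 509 and 362 CPM, Gabarapl2 at 151, 155, 264 and 165, Nlgn2 at 126, 113, 75.8 and 113, Wnk1 at 184, 162, 162 and 153, and Clcn3 at 148, 132, 108 and 120 CPM. None of these 5 was called. In Pax6-high cells 0 of 53 listed genes were called, with a median of −0.32, and 14 had an unadjusted p under 0.05 in edgeR's test, against 9.82% of all genes tested.

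**Figure D4:**
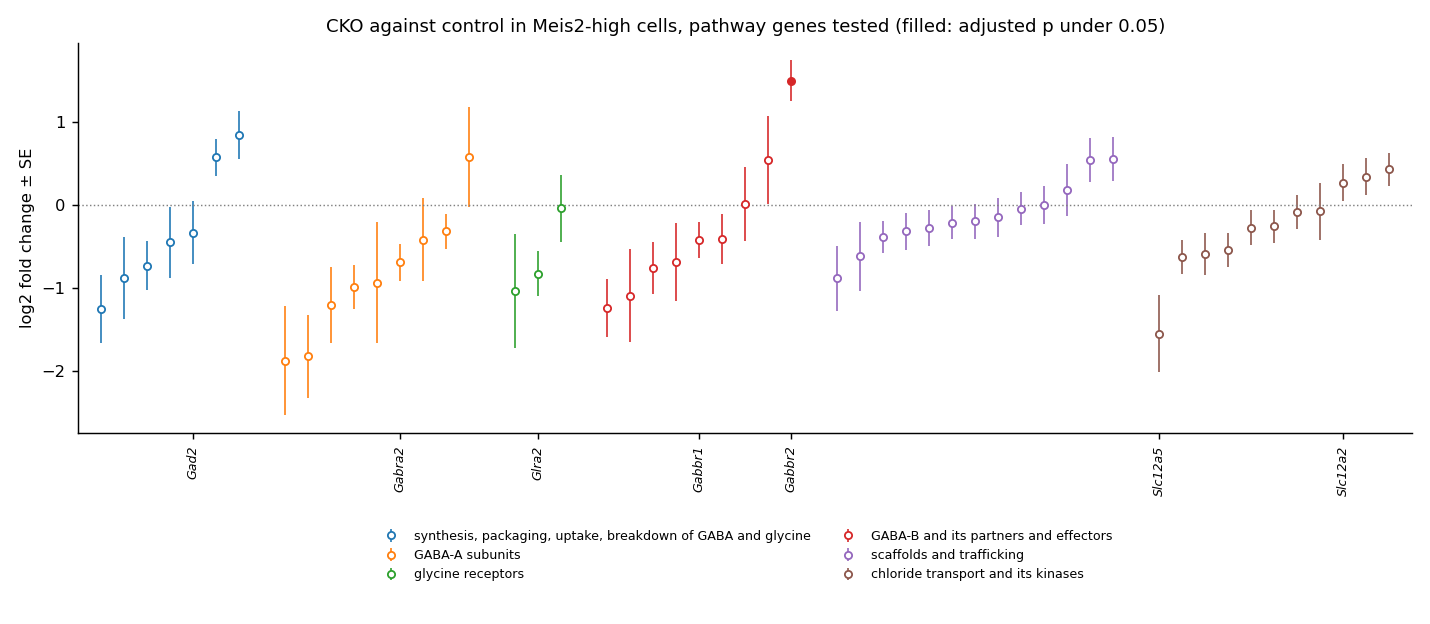
Log2 fold change and its SE (y axis) between CKO and control libraries in Meis2-high cells for the 52 genes tested of the GABA and glycine list (x axis), ordered within 6 groups marked by colour, with the members' names on the axis. The filled point passed an adjusted p of 0.05 and open points did not. Gabbr2 at 1.50 is the filled point, and 39 of the 52 values are below 0.

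The last question was which cells of a sort for the excitatory lineage gave UMIs of the GABA-synthesizing enzymes. Of the 12546 kept cells 245 (1.95%) had a UMI of Gad1 or Gad2, 58, 87, 50 and 50 per library. Most had very little: 163 cells had 1 such UMI and 82 had 2 or more, up to 9. None of the 19 erythroid cells had one, a count of 0 that allows a share of up to 15.8%, so the background was not measured closely enough to read cells with 1 Gad UMI as expressing either gene. Gad2 (chromosome 2, 22622205 to 22693874, plus strand) gave 323 UMIs and Gad1 (chromosome 2, 70553072 to 70602014, plus strand) 96, with 171 cells holding Gad2 alone, 42 Gad1 alone and 32 both. Gad1 overlaps the antisense gene Gad1os, which had 25 UMIs. These cells were spread over 76 Pax6-high, 86 Meis2-high and 83 cells of neither set, and of the 82 cells with 2 or more UMIs, 14, 25 and 43 fell into these sets. Gad2 stood at 0.855 to 4.42 CPM in Pax6-high cells, 5.62 to 9.16 CPM in Meis2-high cells and 23.0 to 38.4 CPM in cells of neither set, with no overlap between the 3 ranges. The Gad1 range was 0.184 to 0.600, 0.905 to 3.14 and 7.13 to 15.4 CPM. Of the Gad-positive cells 6.53% were called doublets, against 2.65% of all cells.

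Cells with more Gad UMIs carried more of the genes of GABAergic neurons. Slc32a1, the transporter that loads GABA and glycine into vesicles, was found in 0.211% of cells without a Gad UMI, in 9.20% of those with 1 and in 29.3% of those with 2 or more (95% Wilson intervals 0.144 to 0.310, 5.66 to 14.6 and 20.5 to 39.9%, counting error only). Lhx1, a LIM homeodomain gene, was found in 8.34, 25.8 and 58.5%, Lhx5 in 0.699, 9.20 and 43.9%, and the transcription factor gene Tfap2a in 0.715, 9.82 and 37.8%. Slc17a6 was found in 27.7, 25.8 and 13.4%, and after thinning to 1000 UMIs in 12.96, 14.72 and 7.32%. In each library its share was lowest in cells with 2 or more Gad UMIs, but in control replicate 1 the 3 shares were close, at 23.4, 27.5 and 22.2%. Median depth rose over the same cells, from 2713 to 2996 and 3489.5 UMIs, and after the same thinning Lhx1 was still found in 2.75, 14.1 and 36.6%. In all 4 libraries the cells with 2 or more Gad UMIs had a higher Lhx1 share than those with none. Ptf1a was found in none of the 245 Gad-positive cells. Of these cells 51 had Slc17a6 without Slc32a1, 37 had Slc32a1 without Slc17a6, 2 had both and 155 had neither.

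**Figure D5:**
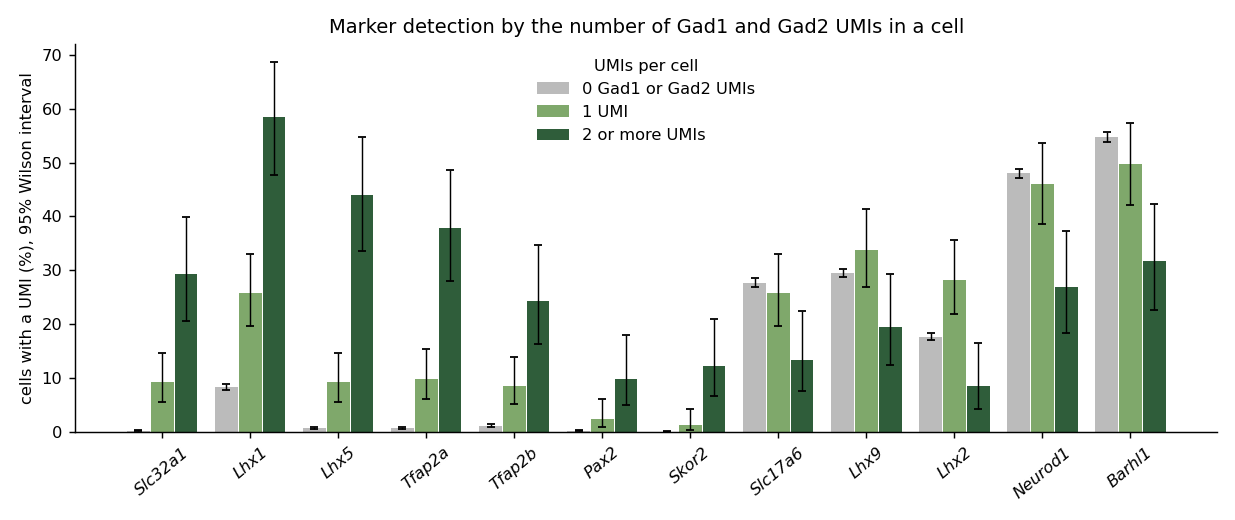
Share of kept cells with at least 1 UMI of the gene on the x axis (y axis, percent, with 95% Wilson intervals), for cells of all 4 libraries with 0, 1 and 2 or more UMIs of Gad1 and Gad2 together. Slc32a1, Lhx1, Lhx5 and Tfap2a climb with the Gad count, Lhx1 from 8.34 to 58.5%, while Slc17a6 and Neurod1 are lowest in cells with 2 or more Gad UMIs.

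Within the Meis2-high set, the 86 Gad-positive cells were compared with the Gad-negative cells of the same libraries, leaving the Gad genes themselves aside since they chose the cells. Of 9203 genes tested 0.608% were called, 0.304% higher and 0.304% lower. Of 6 members tested, Gabra2 was called lower in Gad-positive cells (log2 fold change −2.18, SE 0.46, adjusted p 0.00239). It rested on 1, 3, 1 and 2 UMIs in the Gad-positive cells, against 133, 500, 184 and 90 in the Gad-negative ones, and without control replicate 2 the adjusted p was 0.112. Slc32a1 was called higher (4.64, SE 0.86, adjusted p 0.000224). The other 5 members were not called, with log2 fold changes between −0.63 for Gabbr2 and 0.66 for Slc12a5 and the lowest adjusted p at 0.795, for Gabbr1. Other called genes, named after their values were seen, included Lhx1 (2.11, SE 0.26), Foxp2 (2.56, SE 0.26) and Nrxn3 (2.30, SE 0.18), all higher, and Pcp4 (−1.81, SE 0.21), lower.

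Over the genotypes the share of cells with a Gad1 or Gad2 UMI, after thinning, was 0.500, 0.832, 0.414 and 0.101% of Pax6-high cells (exact permutation test, p = 0.33) and 0.995, 0.861, 1.40 and 0.538% of Meis2-high cells, where the groups overlapped (p = 1.0). In cells of neither set it was 1.58, 2.78, 4.87 and 3.75%, higher in both CKO libraries (exact permutation test, p = 0.33). Among Gad-positive cells no member was called between the genotypes, where 0.401% of 6736 genes were called (0.356% higher and 0.0445% lower). Of the 4 members tested there Slc12a5 alone had an unadjusted p under 0.05 (log2 fold change −2.95, SE 0.90, adjusted p 0.183, and 0.0498 with no low-count filter), on 10 and 7 control UMIs against 1 and 2 CKO UMIs.

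Genes that followed a member most closely over the 8 sums of Pax6-high and Meis2-high cells were taken by Pearson's r of log2(CPM + 1). The 8 sums come from 4 libraries and fall into the 2 sets, and r is given with no test. For Gabbr2 they were Tspan18 (r = 0.99), Lmo1 (0.99) and Ccdc88c (0.98). For Glra2 they were Cxxc4, Fbrsl1 and Sestd1, each at 1.00 when rounded, and for Gabbr1 they included Rai1 and Cadps, also at 1.00. Between the GABA-B subunits r was 0.77, and between Gabbr2 and Gabra2 it was 0.45.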

How the data were processed

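Single-cell RNA was measured in 4 libraries. Per the file headers and the submitters' processing notes, the authors made the deposited matrices with Cell Ranger 5.0.0 on mm10, and their values are raw UMI counts per gene and barcode, not normalized. The annotation is not given in the sources used here. Coordinates come from GENCODE M21 (GRCm38), which held 32158 of the 32285 gene IDs. The libraries held 21351661 and 14998150 UMIs in control and 27138010 and 33709450 in CKO.

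Barcodes with 500 or more genes, 1000 or more UMIs and no more than 10% mitochondrial UMIs were kept. This left 12546 of 23371 deposited barcodes, against 7000 viable cells targeted per library. Doublets stayed in, and an alternative removed 68, 124, 32 and 109 cells by a simulated-doublet score. Gad-positive cells, with 1 or more Gad1 or Gad2 UMIs, overlap the other sets. The 8 genes, the lists and the tests were chosen with earlier results of these data known.

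UMIs were summed per library and set and compared, two-sided, in edgeR 4.0.16 under R 4.3.3 by its quasi-likelihood test, after filterByExpr and TMM scaling, with Benjamini-Hochberg adjustment over all genes tested. Each SE was derived from the fold change and the F statistic. Levels are CPM without TMM factors, except those of Crabp1. Comparisons of sets within libraries had the library as block. The fit was tested on simulated data. Shares of cells used thinned counts with 95% Wilson intervals, and for a share of 0 the limit is 3 counts (counting error only). With 2 against 2 libraries the exact permutation test cannot go below 0.33. Genes named from the pathway list were those called, by size of change and up to 20 a comparison, and those averaging 100 CPM in Meis2-high cells. For each member the 3 genes of highest Pearson r among those averaging 10 CPM were named. Some genes these rules select are not reported here. Alternatives were DESeq2 1.42.0, no low-count filter, no TMM factors, the replicate block, leaving out each library, and other choices of cells. Thinning before summing and crossed replicate numbers were added after the data were seen.

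Replicate numbers are shared by both groups. Deviations of same-numbered libraries correlated at −0.25 over all kept cells, −0.16 in Pax6-high, −0.21 in Meis2-high and −0.06 in Gad-positive cells. These values cannot settle whether the numbers pair the libraries, because cell makeup differed too. Meis2-high cells were 20.7 and 59.1% of control replicates 1 and 2, but 28.6 and 10.1% of CKO replicates 1 and 2. The part of this makeup in the correlations was not tested.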

Additional observations from a re-analysis of the deposited data

How the results depend on the processing

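The number of genes called depended strongly on the settings, and the cause was not tested. In Meis2-high cells it was 25, 44 to 751 with 1 library left out, 559 with no low-count filter, 179 by DESeq2, 42 among deep cells with little mitochondrial RNA, 11 without doublets, 0 without the cells lowest in nuclear RNA, 72 with a margin of 2 UMIs between Pax6 and Meis2, and 12 with cells thinned before summing. In Pax6-high cells it was 8, and by the same settings 2 to 123, 348, 85, 1, 5, 0, 4 and 1, with 1 when the sets were cut after thinning. In Gad-positive cells it was 27, 3 to 191 with 1 library left out, 135 unfiltered, 9 without TMM factors, 8 by DESeq2, 10 without doublets, 7 without cells low in nuclear RNA and 0 thinned. Over all kept cells it was 0, 0 to 1398 with 1 library left out, 768 unfiltered and 142 by DESeq2. For the interaction it was 15, 28 to 422 with 1 library left out, 84 unfiltered, 70 in deep cells, 0 without cells low in nuclear RNA and 75 thinned. For Gad-positive against Gad-negative cells it was 56, 21 to 52 and 89 unfiltered, and for Meis2-high against Pax6-high cells 6473, with 2892 thinned.

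With the replicate block 58 genes were called in Meis2-high cells, 0 in Pax6-high, 8 in Gad-positive and 0 over all kept cells, and Gabbr2 stayed called in Meis2-high cells (log2 fold change 1.47, adjusted p 0.0152). Crossed replicate numbers gave 763, 207, 135 and 885 calls in the same order.

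Of the members' log2 fold changes under all alternatives, 530 kept direction and call, 24 gained a call, 8 lost it and 30 changed sign. Signs changed in Meis2-high cells for Gabbr1 (0.17 thinned) and Gad2 (0.17 with the margin), and in Pax6-high cells for Glra2 (0.22 in deep cells) and Slc12a2 (−0.092 without TMM factors). Over all kept cells they changed for Slc12a2 (−0.041 without TMM factors) and Gabbr2 (−0.23 to 1.12 leaving out 1 library, the lowest without CKO replicate 1). In Gad-positive cells they changed for Slc12a2 (−0.033 without cells low in nuclear RNA, −0.094 to 0.68 leaving out 1 library) and Gabra2 (−1.14 to 0.30 leaving out 1 library), and against Gad-negative cells for Slc12a2 (−0.062 without cells low in nuclear RNA, −0.12 to 0.39 leaving out 1 library). The interaction of Gabbr1 was −0.26 in deep cells, −0.11 without cells low in nuclear RNA, −0.015 with the margin, −0.082 cut after thinning and −0.18 to 0.41 leaving out 1 library. That of Gabbr2 was −0.11, of Slc12a2 −0.10 and of Gabra2 −0.059 in deep cells, and −0.018 for Gabra2 without cells low in nuclear RNA. That of Glra2 was −0.22 in deep cells, −0.078 with the margin, −0.034 cut after thinning and −0.054 to 0.69 leaving out 1 library, that of Gad1 −0.65 to 0.46 leaving out 1 library, and that of Slc12a5 was 0.21 cut after thinning and 0.44 thinned.

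Shares of cells depended on depth (56 kept and 14 changed direction). Changed differences, CKO minus control in percentage points, were −2.70 (2000 UMIs) and −10.6 (deep cells) for Gabbr1, −0.952 and −1.25 for Gad1 or Gad2, 0.443 for Gabra2 and 1.68 for Glra2 (both not thinned) in Meis2-high cells. In Pax6-high cells they were 11.3 (not thinned) and 0.415 (without cells low in nuclear RNA) for Gabbr1, 2.36 for Gabra2 (not thinned), 0.253 for Glra2 (deep cells), −0.374 and −1.82 for Slc12a2 (2000 UMIs and deep cells), and 0.197 and 0.00804 for Slc12a5 (not thinned and deep cells). Deep cells could not be fitted for Gad-positive sets, with 8 and 4 cells in the smallest library.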

Other observations

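The genes called between the genotypes in Gad-positive cells lay outside GABA and glycine signalling. They were named after their values were seen. Crabp1, a retinoic acid binding protein gene, was at 6.19 and 36.9 CPM in control and 402 and 201 CPM in CKO libraries (log2 fold change 3.91, SE 0.54, edgeR adjusted p 0.00343). These levels, unlike the others, were taken after the low-count filter and with TMM factors. They rested on 2, 9, 176 and 81 UMIs. All 176 Crabp1 UMIs of CKO replicate 1 lay in its 17 Meis2-high Gad-positive cells, whereas CKO replicate 2 had 81 UMIs and none in such cells. Cenpa (2.74) and Cks2 (2.53) were higher, and Lhx1 (−2.05) and Th (−2.44) were lower. Each library had 50 to 87 such cells, of which 41.4, 14.9, 32.0 and 46.0% were Pax6-high and 24.1, 52.9, 34.0 and 18.0% Meis2-high. The part of this makeup in the differences was not tested. With every cell thinned to 1000 UMIs before summing, 0 genes were called in this comparison.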
